A study of Saccharomyces cerevisiae with 78 samples.

Results

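The small subunit ribosomal protein genes of *Saccharomyces cerevisiae* were followed across 17 strains that each lack the intron of 1 RPG (ribosomal protein gene). The members were all symbols of the array's gene table that consist of *RPS* and a number, without the *RPS9*, *RPS14* and *RPS21* genes. The rule gave 47 of the 982 gene symbols on the array, and 46 of them have an exon feature and could be measured. In each strain its own intronless gene was left out. The splicing-sensitive array carries 6 spots of each feature, and a gene with an intron has at least 18 spots because separate features cover its exon, its intron and its exon junction. By this spot number 38 members were intron-containing and 9 were intronless (*RPS1A*, *RPS2*, *RPS3*, *RPS12*, *RPS15*, *RPS20*, *RPS22A*, *RPS28A* and *RPS31*). The features of *RPS16A* could not be assigned a kind from the printing layout, and their strain means lay between -0.25 and 0.35.

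The deleted introns were those of *RPL2A*, *RPL2B*, *RPL16A*, *RPL23A*, *RPL24A*, *RPL29*, *RPL31A*, *RPL34A*, *RPL35A*, *RPL40B*, *RPS8A*, *RPS9A*, *RPS9B*, *RPS14A*, *RPS14B*, *RPS21B* and *RPS23A*. Each strain is named after its gene (*rpl16a*Δi lacks the *RPL16A* intron), carries a precise deletion of that intron and keeps the paralogous gene copy where one exists, and was grown in rich medium. RNA of each mutant was hybridized against RNA of a wild-type strain from the same parent, on 78 two-colour arrays that form 39 replicates, each with 1 array per dye orientation. There were 3 replicates in 9 strains, 2 in *rpl2a*Δi, *rpl16a*Δi, *rps9a*Δi and *rps21b*Δi, and 1 in *rpl24a*Δi, *rpl29*Δi, *rpl31a*Δi and *rps23a*Δi. Every value given is a log2 ratio with wild type as the denominator, so that 0 means no difference. The exon value of a gene is taken here as its total RNA relative to wild type. Array signal does not tell a change in transcription from one in RNA decay, and a shift shared by all genes would not be seen after normalization.

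The small ribosomal subunit binds the mRNA and reads its codons. Its proteins fall into those of the body and platform, on one side of the mRNA path, and those of the head and beak on the other, a part that turns while the ribosome moves along the mRNA. Yeast makes these proteins in equal amounts from genes that are mostly present as pairs of near-identical copies, an A and a B copy, and RPGs are transcribed together under Rap1, Fhl1, Ifh1 and Sfp1. Copies of a pair have very similar coding sequences, and how far an exon feature of 1 copy also binds RNA of the other was not tested.

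The deleted intron was low where it should be. In *rps8a*Δi the intron value of *RPS8A* lay between -1.43 and -1.33 in the 3 replicates, against -0.63 to 0.59 in the 36 replicates of the other strains. In *rps23a*Δi, with 1 replicate, that of *RPS23A* was -1.69, against -0.26 to 0.27 in the other 38. Names of the arrays form 4 batches, called A to D here, and 8 strains combine 1 replicate of batch A or D with a pair of batch C. Batch A holds 9 replicates, B 9, C 18 and D 2, and replicate 1 of *rpl2a*Δi stands outside these counts because 1 of its dye orientations lies in batch B and the other in batch C. In 23 of 39 replicates *MFA2*, which encodes a mating pheromone of **a** cells, lay between -4.65 and -3.04, and in the other 16 between -0.19 and 0.73. In these 23, *MF(ALPHA)1*, which encodes the pheromone of alpha cells, lay between 1.16 and 6.78. In 3 of the other 16, the single replicates of *rpl29*Δi and *rpl31a*Δi and replicate 1 of *rpl2a*Δi, *MF(ALPHA)1* lay between -4.48 and -2.27, and in the remaining 12 in which it was measured between -0.35 and 0.41. Of 10 mating-type markers 6 are on the array. By these the 23 and the 3 replicates differ from their reference in mating-type genes as well as in the deleted intron. Like *MF(ALPHA)1*, the alpha markers *MF(ALPHA)2*, *STE3* and *MATALPHA1* were above 0 in the 23 and below 0 in the 3. The **a** marker *MFA1* lay between -3.72 and -1.86 in the 23. In the 3, *MFA1* (0.02 to 0.26) and *MFA2* (0.37 to 0.42) stayed within the range of the remaining replicates.

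As a whole the small subunit genes stayed near the wild-type level. The median over the members lay between -0.10 and 0.09 in the 39 replicates (median -0.02), and between -0.09 in *rpl16a*Δi and 0.04 in *rpl29*Δi by strain. It was below 0 in 27 replicates and above 0 in 12. The large subunit genes, 65 with an exon feature, had medians from -0.04 to 0.09, and genes that encode no ribosomal protein from -0.06 to 0.07. Of the 780 strain means of members, 62.3% were within 0.1 of 0 and 4.62% were beyond 0.25, against 57.4% and 10.2% over all genes. In the 23 replicates with low *MFA2* the members' median was below 0 in 20, and in the other 16, which include the 3 with low *MF(ALPHA)1*, it was below 0 in 7. By batch the members' median was below 0 in 17 of 18 replicates of batch C, 6 of 9 of B, 4 of 9 of A and 0 of 2 of D. Most replicates of batch C are among the 23 with low *MFA2*. The parts of mating type and of batch in this were not tested.

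**Figure D1:**
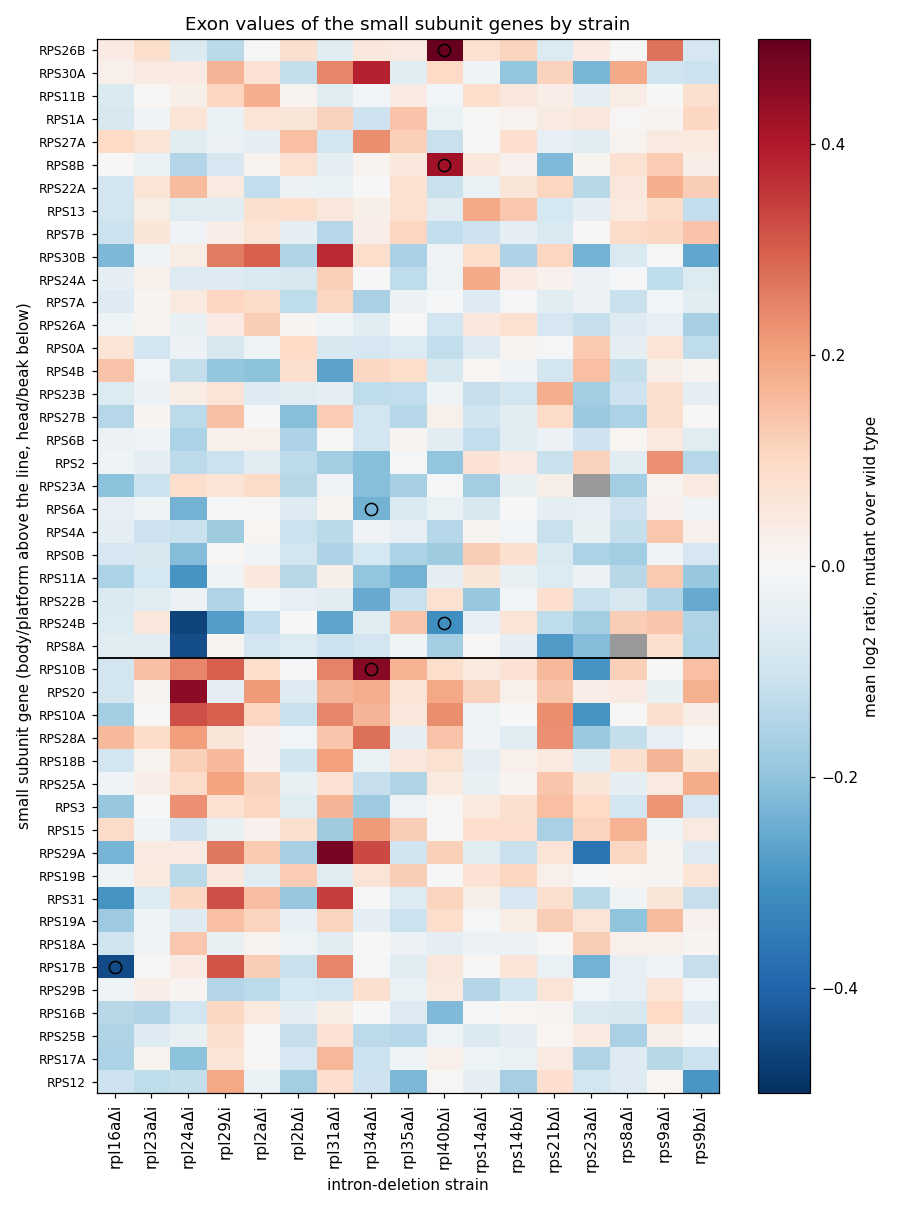
Mean log2 ratio of mutant over wild type (colour) of the 46 measured small subunit genes (rows, by role and by mean over strains) in 17 strains (columns), with own genes in grey and circles where the adjusted p was under 0.05. Most fields are pale, the 6 circles lie in *rpl16a*Δi, *rpl34a*Δi and *rpl40b*Δi, and the scale ends at 0.5, which *RPS26B* in *rpl40b*Δi exceeds with 0.53.

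Replicates of a strain resembled each other in these genes mainly when they came from the same batch. Among 11 replicate pairs of 1 strain within a batch, the correlation over the members had a median of 0.56 (0.07 to 0.90). Among 20 pairs from different batches it had a median of -0.02 (-0.29 to 0.53). These correlations are across genes, which are not independent, and the replicates of a pair share the strain and the wild-type reference type. The median absolute difference per gene was 0.08 within and 0.15 between batches. The closest strain across batches was *rpl34a*Δi, with 0.53 and 0.48 between replicate 1 and replicates 2 and 3. Members spread most in *rps8a*Δi replicate 1, *rps9b*Δi replicate 3 and *rpl40b*Δi replicate 1, with interquartile ranges of 0.42, 0.41 and 0.35 against a median of 0.17. Whether replicates were separate cultures is not given in the labels or methods, so p-values measure the spread between these samples, which may be technical.

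Each strain mean was tested against 0 with limma, with Benjamini-Hochberg adjustment over all genes of the strain. Of 780 tests of members 6 passed, 3 higher and 3 lower, all intron-containing. Over all genes 0.589% of tests were called higher and 0.507% lower, and the members' share of 0.769% in both directions was below the 1.1% of all genes. Counted without adjustment, 68 of the 780 tests had a p under 0.05, against 1614 of 15962 over all genes.

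In *rpl34a*Δi *RPS10B* rose and *RPS6A* fell. *RPS10B*, which encodes a head protein near the mRNA entry, was at 0.56, 0.46 and 0.35 in the 3 replicates. All 3 values are well above 0, and the mean of 0.46, the highest of any member in this strain, is a 1.37-fold increase (SE 0.12, adjusted p = 0.0349 by limma). Its paralog *RPS10A* was at 0.05, 0.25 and 0.21, with a mean of 0.17 and an adjusted p of 0.275. *RPS6A*, which encodes a body protein that is phosphorylated in growing cells, was at -0.02, -0.31 and -0.39. The first replicate was near 0 and the mean was -0.24 (SE 0.06, adjusted p = 0.0476). Its paralog *RPS6B*, with a mean of -0.09, did not pass (adjusted p = 0.425). Both called members kept their sign in either dye, with 0.58 and 0.33 for *RPS10B* and -0.27 and -0.21 for *RPS6A* with the mutant in Cy3 and in Cy5. The background in this strain was 2.34% of all genes called. The call of *RPS10B* was lost without any 1 of the replicates (adjusted p = 0.119, 0.212 and 0.0759), that of *RPS6A* without replicate 2 or 3 (adjusted p = 0.318 and 0.338), and both with batch as a block (adjusted p = 0.0798 for each).

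*RPS17B* fell in *rpl16a*Δi, where 0.426% of all genes were called. This gene, whose product is a head protein, was at -0.52 and -0.37 in the 2 replicates, a mean of -0.45 or 1.36-fold below wild type (SE 0.10, adjusted p = 0.0355 by limma). Its paralog *RPS17A* was at -0.10 and -0.22 and did not pass (adjusted p = 0.344). Both replicates of *RPS17B* lie below both of *RPS17A*. The 2 replicates come from different batches and the call was lost with either alone, at -0.37 (adjusted p = 0.782) and -0.52 (adjusted p = 0.055), and with batch as a block (adjusted p = 0.0692).

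In *rpl40b*Δi, where 11.1% of all genes were called, 3 members passed. *RPS8B* and *RPS26B* rose and *RPS24B* fell. *RPS8B*, which encodes a body protein, was at -0.38, 0.84 and 0.80 in replicates 1 to 3. *RPS26B*, which encodes a platform protein at the mRNA exit, was at -0.12, 0.98 and 0.75. For both genes replicates 2 and 3 were high and replicate 1 was below 0. Their means were 0.42 for *RPS8B* (SE 0.13, adjusted p = 0.0295) and 0.53 for *RPS26B* (SE 0.12, adjusted p = 0.00283). *RPS24B*, another body protein gene, was at -0.52, -0.20 and -0.20, with a mean of -0.31 (SE 0.10, adjusted p = 0.0383).

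The members that rose in *rpl40b*Δi share a chromosome. By their systematic names *RPS8B* (YER102W), *RPS26B* (YER131W) and *RPS24A* (YER074W) are the 3 members on chromosome V. Over the 43 genes of that chromosome with an exon value, the median was -0.06 in replicate 1, 0.79 in replicate 2 and 0.64 in replicate 3. Without the members it was 0.79 and 0.63 in replicates 2 and 3, and 42 and 43 of the 43 genes were above 0. Over genes of all other chromosomes the median was -0.002 and -0.007 in these replicates. In the other 37 replicates the median of chromosome V lay between -0.07 and 0.10, and among the 624 medians of a nuclear chromosome in a replicate these 2 were the only ones beyond 0.25 in either direction. Of the 104 genes called in this strain 30 are on chromosome V, and all 30 were higher. When the median of each chromosome was subtracted in each replicate, an alternative added after the data were seen, *RPS8B* was at -0.04 (adjusted p = 0.85) and *RPS26B* at 0.08 (adjusted p = 0.636). Without replicates 2 and 3 they were at -0.38 (adjusted p = 0.0578) and -0.12 (adjusted p = 0.684), and *RPS24B* was at -0.52 (adjusted p = 0.0949). The call of *RPS24B* was also lost without any 1 replicate of the strain (adjusted p = 0.363, 0.115 and 0.101). With a term in the fit that marks the 23 replicates with low *MFA2* (the *MFA2* term), 5 of the 6 members' calls by strain were lost (adjusted p = 0.0623 for *RPS10B* and 0.404 for *RPS6A* in *rpl34a*Δi, 0.187 for *RPS17B* in *rpl16a*Δi, and 0.268 for *RPS8B* and 0.916 for *RPS24B* in *rpl40b*Δi), and *RPS26B* was at 0.65 (adjusted p = 0.0462). Values from this fit are those estimated for a replicate without low *MFA2*, where the term is 0. Only *rpl23a*Δi, *rpl34a*Δi, *rps8a*Δi and *rps14a*Δi hold replicates with and without low *MFA2*, so with 1 mean per strain the term rests on them alone. In each of them replicate 1, of batch A or D, lacks low *MFA2*, and replicates 2 and 3, of batch C, have it. In these strains the term cannot be told apart from batch, and for *rpl16a*Δi and *rpl40b*Δi it is carried over from them. What made chromosome V differ between the replicates was not tested.

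*RPS24A* was the member of chromosome V whose exon value stayed near 0. Its exon feature was at -0.17, 0.04 and 0.05 in replicates 1 to 3, its junction feature at -0.02, 0.40 and 0.43, and its intron feature at 0.23, 1.09 and 0.95. The exon feature of *RPS8B* differed from this with 0.84 and 0.80 in replicates 2 and 3, beside 0.57 and 0.49 at its junction and 0.94 and 0.66 at its intron. For *RPS26B* these features were at 0.98 and 0.75, 0.43 and 0.56, and 0.68 and 0.39. In replicates 2 and 3 the intron and exon features of all 3 genes were thus above 0. The exon feature of *RPS24A*, at 0.04 and 0.05, was far smaller than those of the other 2 genes.

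**Figure D2:**
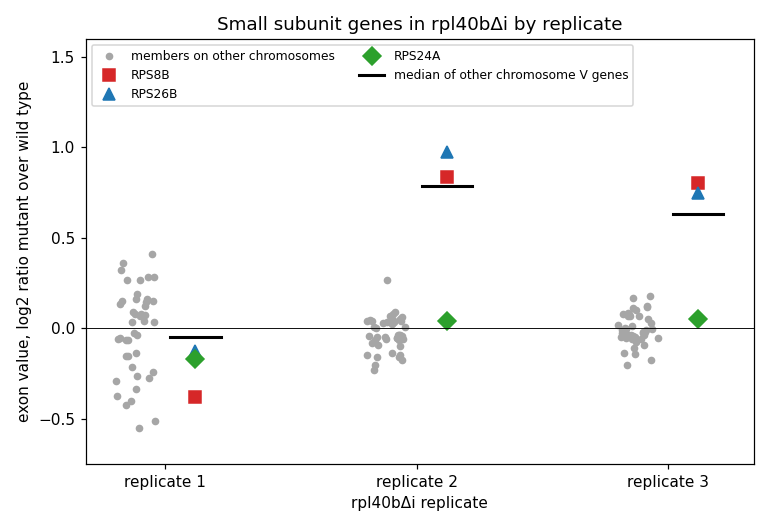
Exon values (log2 ratio of mutant over wild type) of the small subunit genes in the 3 replicates of *rpl40b*Δi, with the 3 members on chromosome V as coloured symbols, the other members as grey points and the median of the remaining chromosome V genes as a bar. *RPS8B* and *RPS26B* lie near or above the bar in replicates 2 and 3, while *RPS24A* stays at 0.04 and 0.05.

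No call was made for the paralogs of the intronless small subunit genes. *RPS8B* was at 0.19, 0.10 and -0.06 in *rps8a*Δi (mean 0.08, adjusted p = 0.973 by limma), and *RPS23B* was at -0.17 in the single replicate of *rps23a*Δi (adjusted p = 0.592). The intronless genes themselves, left out above, had exon values of -0.04 (-0.18 to 0.05 in 3 replicates) for *RPS8A* and 0.02 for *RPS23A*. The largest strain means without a call came from strains with 1 replicate. In *rpl24a*Δi *RPS24B* was at -0.46, *RPS8A* at -0.44 and *RPS20* at 0.45, and in *rpl31a*Δi *RPS29A* was at 0.47.

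Taken over all strains with equal weight, 5 members passed, 1 higher and 4 lower, where 4.99% of all genes were higher and 6.06% lower. *RPS10B* had the highest mean over strains, 0.11 (SE 0.04, adjusted p = 0.042), and was above 0 in 13 of 17 strains. In the 39 replicates it ranged from -0.47 to 0.56 with a median of 0.15. *RPS8A* had the lowest, -0.11 (SE 0.02, adjusted p = 0.00544), and was below 0 in 13 of 16 strains. It ranged from -0.55 to 0.09 over 36 replicates with a median of -0.06, and 30 of them were below 0. The others were *RPS24B* at -0.09 (adjusted p = 0.048), *RPS22B* at -0.08 (adjusted p = 0.0326) and *RPS0B* at -0.08 (adjusted p = 0.0193). Both *RPS22B* and *RPS0B* belong to the body and platform list, and the latter was below 0 in 14 of 17 strains.

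None of these 5 had the same sign in both dye orientations. With the mutant in Cy3, *RPS10B* was at 0.36 (adjusted p = 1.37e-07) and *RPS8A* at -0.22 (adjusted p = 3.75e-05). With the mutant in Cy5, *RPS10B* was at -0.14 (adjusted p = 0.00709) and *RPS8A* at 0.01 (adjusted p = 0.886). *RPS0B*, *RPS22B* and *RPS24B* were likewise below 0 in Cy3 (-0.17, -0.20 and -0.22) and above 0 in Cy5 (0.01, 0.03 and 0.04). Over the 46 members 27 were called in Cy3 and 17 in Cy5, and 29 had opposite signs. No member was called with 1 sign in both orientations, and 15 were called with opposite signs. Over all 941 genes 78.3% had opposite signs, 24 were called with the same sign and 343 with opposite signs. Of all genes 63.5% were called in Cy3 and 49.4% in Cy5. Every replicate holds 1 array per orientation, so a dye effect of fixed size in a gene cancels in the mean over both where both have a value. Where 1 orientation lacks a value it does not cancel. With batch as a block 0 members were called over all strains, and leaving out *rpl16a*Δi replicate 2 left 2. With the *MFA2* term, whose values stand for replicates without low *MFA2*, 0 members were called. There *RPS10B* was at 0.17 (adjusted p = 0.431), *RPS8A* at -0.06 (adjusted p = 0.764) and *RPS24B* at 0.05 (adjusted p = 0.785). Batch C alone called 27 of 46 members over its strains (58.7%), where 46.7% of all genes were called.

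**Figure D3:**
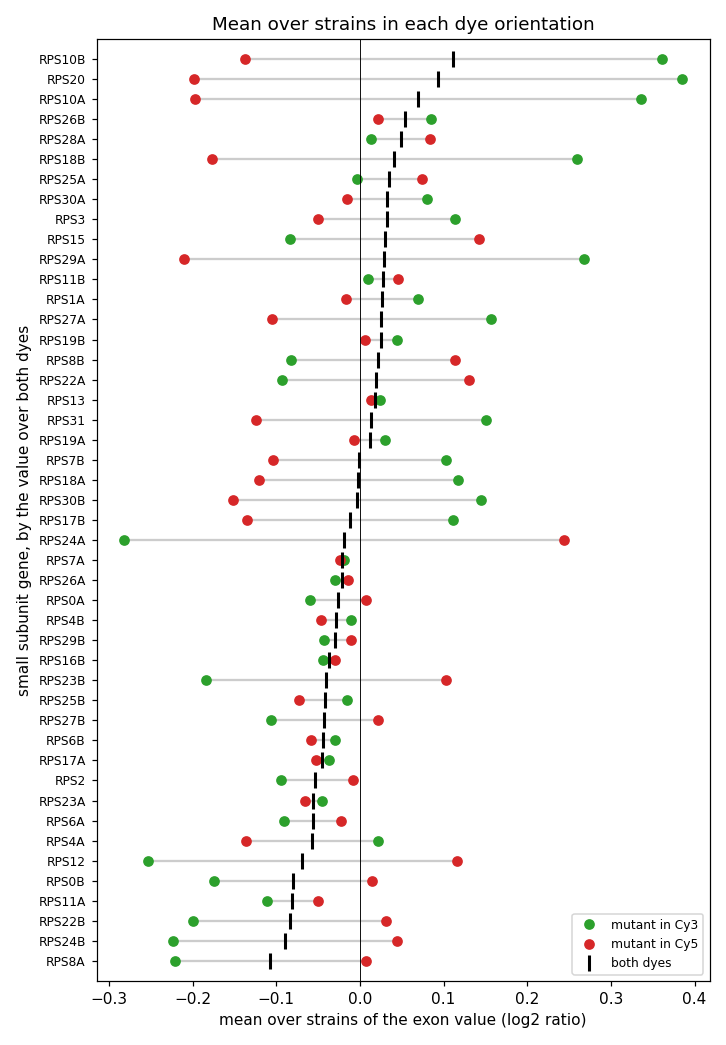
Mean over strains of the exon value (log2 ratio of mutant over wild type) for the 46 small subunit genes, with the mutant in Cy3 (green), in Cy5 (red) and over both (black bar). *RPS20*, *RPS10A*, *RPS24A* and *RPS10B* have the widest gaps, and the green and red points of 29 genes lie on opposite sides of 0.

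By role, head and beak genes lay somewhat above those of the body and platform. The mean over strains was above 0 for 12 of 19 head and beak members (-0.07 to 0.11, median 0.03) and for 8 of 27 body and platform members (-0.11 to 0.05, median -0.03), beside a median of 0.002 over all genes. The head median was above the body median in 26 of 39 replicates, with differences from -0.11 to 0.30. *RPS26B* (0.05) was the highest body member and *RPS8A* the lowest. Among head members *RPS10B* was the highest and *RPS12* (-0.07), which encodes a beak protein, the lowest. *RPS12* was also the lowest of the intronless members, and *RPS20* (0.09), a head protein gene, the highest, neither of which passed (adjusted p = 0.276 and 0.0739). The gap between roles has no test here.

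Differences among strains were tested in each member with limma's F test. It called 0 of 46 members, where 0.638% of all genes were called. Without adjustment 3 of 46 members had a p under 0.05 (*RPS4B*, *RPS17B* and *RPS10A*), against 150 of 941 over all genes. The SD of a member over the strains ranged from 0.06 (*RPS18A*) to 0.21 (*RPS29A*), with a median of 0.10, against 0.12 over all genes. Within batch C alone, with 18 replicates of 10 strains, the F test called 16 of 46 members, where 39% of all genes were called, so the members' share of 34.8% was below it. *RPS8B* and *RPS26B* led, both highest in *rpl40b*Δi (0.82 and 0.86). *RPS11A*, which encodes a body protein, came next with -0.31 in *rpl16a*Δi and 0.10 in *rpl2a*Δi (adjusted p = 0.00376), and then *RPS12* with -0.27 in *rps14b*Δi and 0.20 in *rps8a*Δi (adjusted p = 0.00392). *RPS10B* was again highest in *rpl34a*Δi, at 0.40 (adjusted p = 0.00688). By strain, batch C alone gave 61 calls among 459 tests of members (13.3%), where 16.9% of all tests were called. Of these 18 were in *rpl34a*Δi, 10 in *rps14b*Δi and 9 in *rpl2b*Δi. Strains in batch C have at most 2 replicates there, and p-values within it rest on the spread between replicates of that batch. *rpl16a*Δi and *rpl2a*Δi have 1 each, so the values of *RPS11A* given for them are single replicates. In the other replicate of these strains *RPS11A* was at -0.004 and 0.004. *RPS12* was at 0.03 in replicate 1 of *rps14b*Δi and at -0.59 in replicate 1 of *rps8a*Δi, both outside batch C.

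Intron-containing members were compared with intronless ones by the difference of their medians in each replicate. By strain the difference lay between -0.14 (*rpl24a*Δi) and 0.07 (*rpl16a*Δi), with a median of -0.03, and it was below 0 in 15 of 17 strains. The difference has no test here, and its SD between replicates of a strain, 0.12, was above most of the strain values. By replicate it ranged from -0.29 to 0.17 and was below 0 in 24 of 39. In batch A it was above 0 in 6 of 9 replicates (median 0.07), in batch B in 3 of 9 (median -0.04) and in batch C in 6 of 18 (median -0.07). In *rpl2b*Δi, *rpl34a*Δi and *rpl35a*Δi the replicate of batch A was at 0.16, 0.13 and 0.16, and all 6 of batch C were between -0.15 and -0.08. *rpl40b*Δi showed the opposite order, with -0.29 in batch A and 0.10 and -0.01 in batch C. The median of the 9 intronless members spanned -0.24 to 0.27 over the replicates, and that of the 37 intron-containing ones -0.11 to 0.08. With the *MFA2* term, whose values stand for replicates without low *MFA2*, the members' difference had a median of 0.04 over strains. It was then above 0 in 10 of 17. In strains in which every replicate has low *MFA2* these values rest on other strains. Among genes of no ribosomal protein the same difference, without this term, had a median of -0.002 over strains and was below 0 in 9 of 17.

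**Figure D4:**
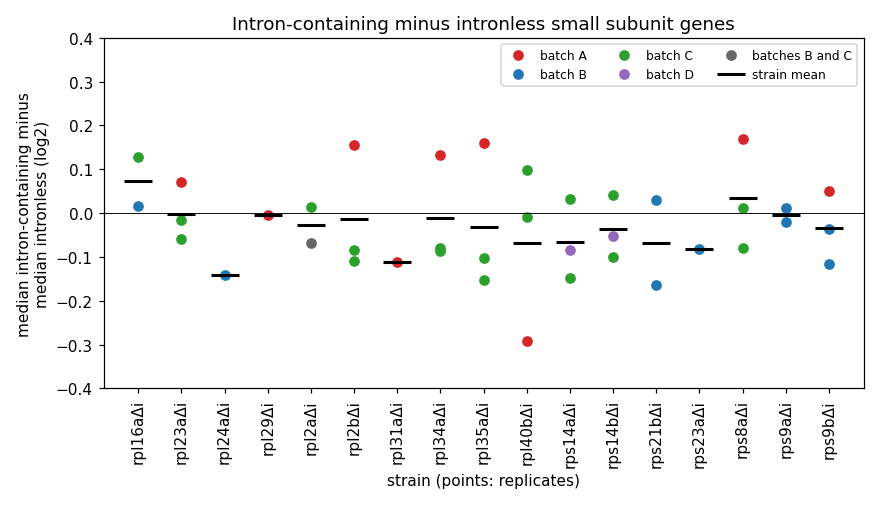
Median exon value of the intron-containing minus that of the intronless small subunit genes (log2) in each replicate (points, coloured by batch of the array name) and its mean in each strain (bars). Bars lie below 0 in 15 of 17 strains, and within *rpl2b*Δi, *rpl34a*Δi and *rpl35a*Δi the batch A point is on the other side of 0 from both batch C points.

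Copies of a pair were compared directly in the 18 pairs with both copies measured, leaving out a pair in the strain of either copy. Over the strains 4 pairs passed, where 23.3% of the 43 RPG pairs on the array did. Among them were *RPS22* and *RPS25*, in which the A copy was higher than the B copy relative to wild type, at 0.10 (SE 0.03, adjusted p = 0.0185 by limma, 13 of 17 strains) and 0.08 (SE 0.03, adjusted p = 0.0299, 15 of 17). The *RPS22* difference was above 0 in 27 of 39 replicates, which ranged from -0.23 to 0.76 with a median of 0.14. That of *RPS25* was above 0 in 32 of 39, from -0.28 to 0.26 with a median of 0.10. *RPS22* is the pair of an intronless A copy and an intron-containing B copy. *RPS22* passed in both dyes (0.11 and 0.10, adjusted p = 0.0348 and 0.0321), and *RPS25*, a head protein pair whose B copy has an exon feature placed by a part of the layout that no deleted intron tests, was at 0.02 (adjusted p = 0.702) with the mutant in Cy3 and at 0.15 (adjusted p = 0.00336) in Cy5. Neither passed with batch as a block (*RPS22* 0.13, adjusted p = 0.113, and *RPS25* -0.02, adjusted p = 0.627) or with the *MFA2* term (*RPS22* 0.22, adjusted p = 0.111, and *RPS25* 0.05, adjusted p = 0.748), which left 0 pairs called over the strains.

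By strain 5 differences between copies passed among 304 tests, where 2.1% of all tests of pairs were called. *RPS26* in *rpl40b*Δi was at -0.14, -0.97 and -0.78 in the 3 replicates, with a mean of -0.63 (adjusted p = 2.08e-05). Its B copy is a gene on chromosome V described above, and after subtraction of the chromosome medians the difference was -0.16 (adjusted p = 0.395). *RPS27*, a platform protein pair, had a higher A copy in *rpl2b*Δi, with 0.37, 0.41 and 0.32 (mean 0.36, adjusted p = 0.0159), and in *rpl34a*Δi, with 0.40, 0.31 and 0.27 (mean 0.33, adjusted p = 0.0325). All 6 replicates were on the same side. In *rpl34a*Δi it was 0.03 with the mutant in Cy5, and the call in each of these strains was lost without any 1 of its replicates. *RPS10* in *rpl34a*Δi was at -0.51, -0.21 and -0.14 (mean -0.28, adjusted p = 0.0325). This call was lost without replicate 1 (-0.17, adjusted p = 0.403), without replicate 2 (-0.32, adjusted p = 0.146) and with batch as a block (adjusted p = 0.0619). With the *MFA2* term *RPS27* did not pass in either strain (adjusted p = 0.188 and 0.0683). *RPS25* varied least over the strains (SD 0.06, from -0.01 to 0.18) and *RPS29*, a head protein pair, most (SD 0.22, from -0.35 in *rps23a*Δi to 0.57 in *rpl31a*Δi, both with 1 replicate). Within batch C alone 33 of 179 tests of member pairs passed (18.4%), where 21% of all pair tests did, and the F test called 10 of 18 member pairs (55.6%), where 55.8% of all pairs were called.

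**Figure D5:**
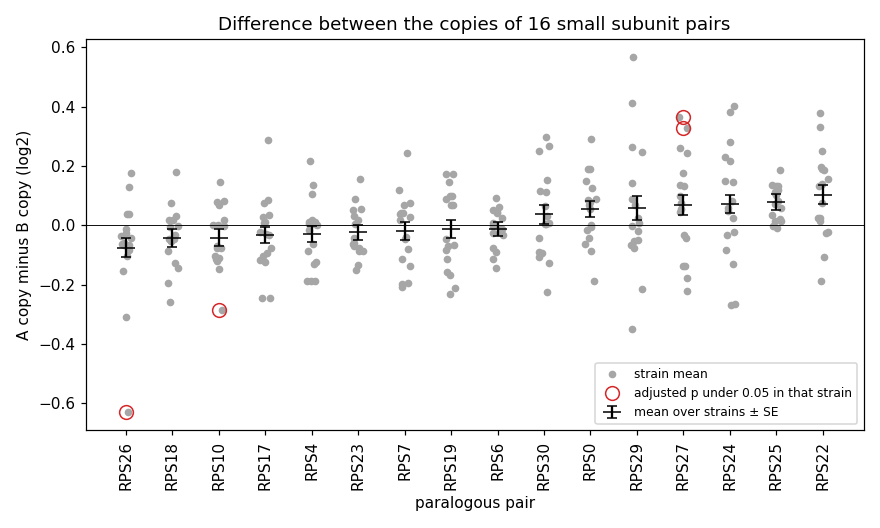
Exon value of the A copy minus that of the B copy (log2) for 16 small subunit pairs, with strain means as grey points, red circles where limma's adjusted p was under 0.05 in that strain and the mean over strains ± SE in black. *RPS26* lies lowest and *RPS25* and *RPS22* highest, and the lowest point is *RPS26* in *rpl40b*Δi at -0.63.

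Across the 39 replicates the copies of a pair followed each other only in part. Their correlation had a median of 0.15 and ranged from -0.29 (*RPS22*) to 0.68 (*RPS10*), while members of different families had a median of 0.06 (-0.71 to 0.84). These values describe points that share arrays, batch and strain. In the 4 members with 2 exon features (*RPS8A*, *RPS25A*, *RPS26A* and *RPS29A*) the features of 1 gene correlated at 0.74 to 0.91. The exon and junction features of 1 gene agreed less. Over 37 members their correlation had a median of 0.31 (-0.46 to 0.88) and was below 0 in 9. In 11 of the 37 the junction feature correlated more with the intron feature than with the exon feature.

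The Intron Accumulation Index, the intron value minus the exon value, was tested for 37 members. It was called once in 627 tests, where 0.339% of all index tests and 0.881% of those in *rpl40b*Δi were called. The call was *RPS24A* in *rpl40b*Δi, with 0.40, 1.05 and 0.89 in the replicates and a mean of 0.78 (SE 0.15, adjusted p = 0.00185 by limma). Both of the larger values come from the replicates in which chromosome V was high, and without them the index was 0.40 (adjusted p = 0.676). The call was also lost without replicate 2 alone (0.64, adjusted p = 0.164), with the mutant in Cy5 only (0.44, adjusted p = 0.643), with at least 4 of 6 spots (0.55, adjusted p = 0.243) and with the *MFA2* term (0.41, adjusted p = 0.333). It was 0.49 (adjusted p = 0.346) with the junction feature in place of the exon feature. Without adjustment 57 of the 627 index tests had a p under 0.05, and a count over all index tests is not given here. Within batch C alone 57 of 369 index tests of members passed (15.4%), where 9.7% of all index tests did. Member indices lay between -0.53 and 0.78 by strain, with a median of 0.03.

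Regulators and assembly factors of the small subunit showed no calls. Of 11 listed genes for RPG transcription 7 were measured, and 0 of 119 tests passed by limma (7 with an unadjusted p under 0.05, median -0.02). Of 30 listed assembly genes 5 were measured, and 0 of 85 tests passed (8 with an unadjusted p under 0.05, median -0.01). Over all genes 1614 of 15962 tests had an unadjusted p under 0.05. Of 1095 tests of large subunit genes 10 passed, 6 higher and 4 lower, or 0.913%. The 5 genes outside the members whose means over 17 strains correlated most with the members' median were *RPL31B* (0.88), *RPL32* (0.85), *YRB2* (0.83), *RPL1A* (0.81) and *RPL30* (0.81), of 862 genes with a value in every strain. Of these *RPL31B*, *RPL32*, *RPL1A* and *RPL30* encode large subunit proteins and *YRB2* a factor of nuclear transport.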

How the data were processed

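The deposited values are log2 ratios per spot. The authors had normalized them (marray and limma, in a Goulphar-derived pipeline) and turned every array to mutant over wild type. Background correction and program versions were not given in the sources used here. Intensities were not analysed. Of 9216 spots between 83 and 3552 per array had no value. The 6 spots of a feature and then the arrays of both dye orientations of a replicate were averaged. Whether a feature is an exon, intron or junction probe was inferred from where it was printed, taking the deleted introns as a guide, a rule that rests on no deleted intron for 15 genes, among them *RPS19A* and *RPS25B*. The model was fitted in R 4.3.3 by limma 3.58.1, with 1 mean per strain, 22 residual degrees of freedom and Benjamini-Hochberg adjustment over all genes at 0.05, which assumes that strains with 1 replicate vary like the others. The mean over strains, the F test among strains and the A minus B fit over 43 RPG pairs were fitted in the same way, each with its own moderated variances. The fit was tested on simulated data. Genes were named by the array's annotation, all 982 symbols matching the yeast gene table (assembly R64) by identifier, and chromosomes were taken from systematic names, which were found for 910 of 941 exon genes. No member sequences are shown.

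Members, role lists, pathway lists and the rule for named genes were chosen with earlier results of these data known. Named were all called members and pairs, *RPS8A*, *RPS8B*, *RPS23A* and *RPS23B*, the extremes of each role and class, the most and least variable pairs (the values of 2 pairs are not reported here) and the 5 genes most like the members' median. Alternatives were the median over spots, centring and scaling of arrays, either dye alone, batch as a block or alone, a replicate block, own replicates only, robust moderation, complete features, a term for low *MFA2*, other feature kinds, the mean of the other strains as reference, and leaving out each replicate. Subtracting chromosome medians and leaving out *rpl40b*Δi replicates 2 and 3 were added after the data were seen. Python 3.11.15 with pandas 2.3.3, numpy 2.4.6 and matplotlib 3.10.9 drew the figures.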

Additional observations from a re-analysis of the deposited data

Results flagged for a closer look

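The following results differed between a strain and the mean of the other strains by a limma contrast of that difference, all in *rpl40b*Δi. *RPS26B* was 0.51 higher by exon value (adjusted p = 0.00773). The difference between the A and the B copy was -0.59 for *RPS26* (adjusted p = 0.000145), on the same contrast. The index of *RPS24A* was 0.68 higher than in the other strains (adjusted p = 0.0137). In each of them replicates 2 and 3, where the median of the chromosome V genes was 0.79 and 0.64, had the larger values. In replicate 1, where it was -0.06, *RPS26B* was at -0.12, its copy difference at -0.14 and the index of *RPS24A* at 0.40, the latter 2 on the same side of 0 as in replicates 2 and 3. No strain has more than 3 replicates, so single samples were not tested as outliers.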

How the results depend on the processing

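The 18 results named above kept their sign in 507 of 518 recomputed values, and 351 of these also kept their side of the threshold. They were picked because they passed in the same arrays. For each result over all strains, 35 of 48 recomputed values leave out a single replicate, which can hardly change a sign. The pooled counts therefore do not measure how robust the results are. The 11 changes of sign were as follows. With the mutant in Cy5 only, the means over strains were 0.0139 for *RPS0B*, -0.138 for *RPS10B*, 0.0311 for *RPS22B*, 0.0437 for *RPS24B* and 0.0067 for *RPS8A*. With batch as a block the difference between copies over strains was -0.0241 for *RPS25*. The mean of *RPS24B* was 0.0534 with the *MFA2* term, and that of *RPS10B* was -0.0527 in batch B alone. In *rpl40b*Δi *RPS26B* was at -0.12 and *RPS8B* at -0.38 without replicates 2 and 3, and *RPS8B* at -0.0359 after subtraction of chromosome medians.

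Counts of member calls by exon value, 6 as reported, were 21 with the mutant in Cy3 only, 2 with batch as a block, 2 with the *MFA2* term, 0 in batch B alone, 61 in batch C alone, 1 against the mean of the other strains, 0 on each strain's own replicates and 3 after subtraction of chromosome medians. Differences between copies by strain, 5 as reported, were 8 with arrays centred and scaled, 9 in Cy3 only, 3 with batch as a block, 1 in batch B alone, 33 in batch C alone, 3 with at least 4 of 6 spots and 3 without *rpl40b*Δi replicates 2 and 3. Index calls, 1 as reported, were 2 with the median of spots, 3 with arrays centred and scaled, 13 in Cy3 only, 5 in Cy5 only, 3 with batch as a block, 11 with the *MFA2* term, 0 in batch B alone, 57 in batch C alone, 0 with at least 4 of 6 spots and 3 without *rpl40b*Δi replicates 2 and 3. Members called over all strains, 5 as reported, were 8 with arrays centred and scaled, 27 in Cy3 only, 17 in Cy5 only, 0 with batch as a block, 0 with the *MFA2* term, 0 in batch B alone, 27 in batch C alone, 2 with at least 4 of 6 spots and 3 without *rpl40b*Δi replicates 2 and 3. Pairs called over all strains, 4 as reported, were 10 in Cy3 only, 9 in Cy5 only, 1 with batch as a block, 0 with the *MFA2* term, 0 in batch B alone and 11 in batch C alone. Over all genes, 1.07% of index tests were called in Cy5 only, 2.11% in Cy3 only, 1.17% with batch as a block, 1.88% with the *MFA2* term and 9.7% in batch C alone, and by exon value 5.25% in Cy3 only, 0.952% with batch as a block, 0.426% with the *MFA2* term and 16.9% in batch C alone. Over the strains 7.65% of genes were called with batch as a block, 0.106% with the *MFA2* term and 46.7% in batch C alone, and 65.1% of pairs in batch C alone. The F test called 16 members in batch C alone and 0 under the other alternatives beside the omission of single replicates. The class difference ranged from -0.07 in batch B alone to 0.04 with the *MFA2* term, so its sign was not kept. Each move was smaller than its SD between replicates of a strain (0.12). As this SD exceeds the difference itself, that does not show the difference to be stable.

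Leaving out each of 35 replicates in turn gave 2 to 8 exon calls, 3 to 9 differences between copies by strain, 0 to 2 index calls, 2 to 7 members and 3 to 6 pairs over all strains, 0 to 2 members by the F test and a class difference of -0.03. The lowest exon count came without *rpl40b*Δi replicate 2 and the highest without *rps8a*Δi replicate 1. Same-numbered replicates of different strains correlated at a median of 0.06 (lowest -0.50) and differently numbered ones at -0.03 (lowest -0.67). The reported test does not pair replicates by number. Replicates of different strains within a batch correlated at a median of 0.12 and those of different batches at -0.04, which the reported test does not model. With a replicate block 7 exon, 6 copy, 1 index, 6 over-strain and 5 pair calls were made, the F test called 0 members and the class difference was -0.04. Batches A and D hold 1 replicate per strain and could not be fitted alone. The causes of these changes were not tested. No intensities were used, so how dim spots limit a value is unknown.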
